A study of Homo sapiens with 6 samples.

Results

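The core of the transforming growth factor beta (TGF-beta) pathway was followed through 10 genes: the ligand TGFB1, the receptors TGFBR1 and TGFBR2, the coreceptor ENG, the signal transducers SMAD2, SMAD3 and SMAD4, the inhibitor SMAD7 and the corepressors SKI and SKIL. Members were taken as catalogue probes of a custom Agilent array whose RefSeq accession maps to one of these genes. Each gene had 1 such probe, so the members are 10 of 57176 probes and 10 of the 19721 genes named on the array. Expression was measured in REH cells, an established human line of precursor B leukemia in which ETV6 is fused to RUNX1 and, according to the study, the other ETV6 allele is lost. All cells received a lentiviral short hairpin RNA (shRNA) vector with a GFP gene and were sorted for GFP before RNA was taken. In 3 arrays, called knockdown, the shRNA was directed at the ETV6 portion of the fusion transcript, and in 3 arrays, called control, it is labelled non-targeting. The study's methods describe that control as another ETV6 hairpin which did not target the fusion. The comparison therefore rests on 1 cell line, 1 active hairpin and 1 control hairpin.

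TGF-beta is secreted in a latent form and, once released, binds the type II receptor TGFBR2, which then phosphorylates the type I receptor TGFBR1. The activated receptor phosphorylates SMAD2 and SMAD3, which join SMAD4 and regulate genes in the nucleus, while SMAD7, SKI and SKIL hold the signal back. In the B lineage, TGF-beta is known as a brake on proliferation.

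Upstream sequences are shown for TGFB1 and SMAD4, the members with the highest and the lowest log2 fold change below. Both are the 250 bases before the first transcribed base, from RefSeq on GRCh38.p14, written 5′ to 3′ in the direction of transcription. TGFB1 lies on the minus strand (chr19:41353923-41354172) and SMAD4 on the plus strand (chr18:51029963-51030212). Capitals mark TGTGGT, the core of the motif bound by RUNX factors.
TGFB1: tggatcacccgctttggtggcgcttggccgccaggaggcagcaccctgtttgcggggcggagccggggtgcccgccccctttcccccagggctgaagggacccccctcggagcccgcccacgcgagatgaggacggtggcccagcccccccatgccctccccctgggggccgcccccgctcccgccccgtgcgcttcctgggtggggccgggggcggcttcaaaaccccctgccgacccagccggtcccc
SMAD4: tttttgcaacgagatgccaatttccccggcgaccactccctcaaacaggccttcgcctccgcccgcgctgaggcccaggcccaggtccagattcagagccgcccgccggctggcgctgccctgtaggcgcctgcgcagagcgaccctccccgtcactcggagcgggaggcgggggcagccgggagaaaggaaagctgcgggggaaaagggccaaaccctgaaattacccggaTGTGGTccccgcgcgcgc
Both strands were searched for TGTGGT, for its variant TGCGGT, which RUNX factors also bind, and, for SMAD proteins, for the short element CAGAC as well as the longer palindrome GTCTAGAC, which does not contain the short one. TGTGGT occurred once upstream of SMAD4, from base -18 to -13, and none of these letters occurred upstream of TGFB1. Of 35116 upstream windows of the same length, 11.0% held TGTGGT, 5.84% TGCGGT, 38.0% CAGAC and 0.182% GTCTAGAC. TGTGGT was also found in 1 of 5 windows of SMAD3, and TGCGGT in 1 of 8 windows of TGFBR1 and 1 of 3 of SMAD7. CAGAC was found in the 1 window of SKIL, in 2 of 5 of SMAD3, in 2 of 3 of SMAD7 and in 4 of 8 of TGFBR1. None of the motifs was found in the windows of ENG (1), SMAD2 (2) and TGFBR2 (2), and SKI was not searched. The window of ID2, a gene named below that is not a member, held none of them either. A match describes letters only.

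Arrays had median raw intensities between 66 and 75, against 42.3 to 48.0 for the negative control spots, and pairwise correlations across probes from 0.986 to 0.996. On the slide, all 3 knockdown arrays and control replicate 3 lay in row 2 and the other 2 control arrays in row 1, so that group and row were largely confounded. A fit with slide row as a term therefore takes its log2 fold changes as the knockdown arrays against control replicate 3 alone. Calls kept or lost in such a fit rest on that 1 control array. A probe was retained where it exceeded a threshold set by the negative controls on 2 of 3 arrays of a group, which 27490 probes did. Of 2 ETV6 probes, the one retained (A_33_P3356325) measured 7.92, 8.05 and 8.37 in control and 7.50, 7.46 and 7.29 in knockdown arrays. It was lower by 0.70 on the log2 scale (SE 0.14) with no overlap, but did not pass the test (limma, adjusted p = 0.0513). Where it lies in ETV6 was not analysed here. The 5 RUNX1 probes had log2 fold changes between -0.26 and 0.031. Of 12 B-cell precursor markers 11 were retained, VPREB1 being the exception, and their summed level was 277401 to 290667 in control and 327640 to 371748 in knockdown arrays. None of these markers passed the test, and their part in the results below was not tested.

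None of the 9 retained members changed at an adjusted p under 0.05, against 1.74% of all retained probes, 0.458% higher and 1.28% lower. With slide row as a term, 227 probes passed in place of 478, and 0 members. With the replicate number as a block, the count was also 0 against 3.79% of all retained probes (1.36% higher). Without adjustment, 2 members (TGFB1 and SMAD3) had p under 0.05, with or without the block, against 12.5% of all retained probes without the block and 18.8% with it. The control and knockdown values did not overlap for the same 2 members, both higher in knockdown, against 18.9% of all retained probes in either direction, 9.03% higher and 9.88% lower. Of the 9 members 5 were higher and 4 lower, and their median log2 fold change was 0.019 against -0.0015 over all retained probes. The scale is a generalised log2, on which changes of dim probes come out too small. With 3 arrays against 3, an exact permutation test cannot give a two-sided p under 0.1.

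**Figure D1:**
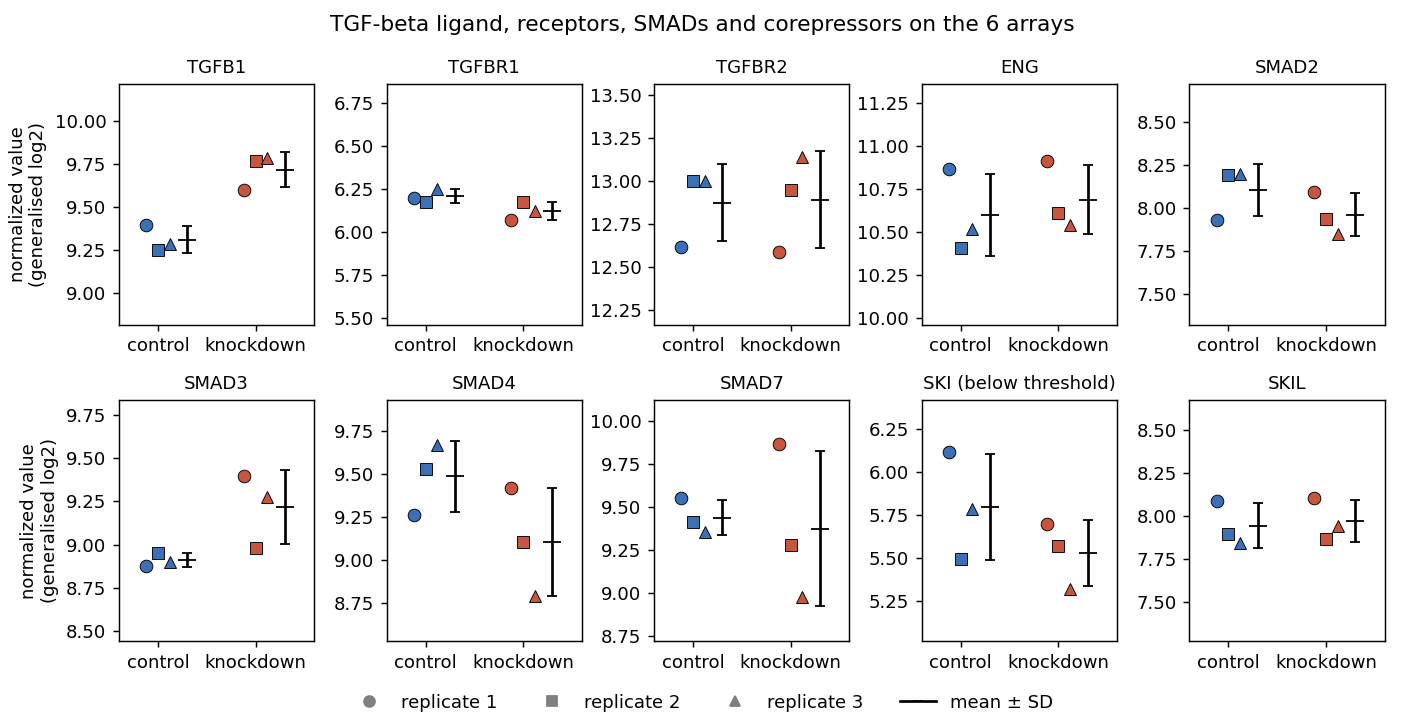
Normalized value (y axis, generalised log2) of each member in 3 control and 3 knockdown arrays, with symbols for replicate numbers and black bars for mean ± SD; each panel spans the same 1.4 units, but levels of different probes are not comparable. TGFB1 and SMAD3 are the panels in which all knockdown points lie above all control points.

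TGFB1, the ligand that starts the cascade, had the highest change. It measured 9.40, 9.25 and 9.29 in the control arrays and 9.60, 9.77 and 9.78 in the knockdown arrays. All knockdown values lay above all control values, and the smallest step was seen for replicate 1. The log2 fold change was 0.41 (SE 0.10, 95% interval 0.17 to 0.64), or 1.32-fold, with an adjusted p of 0.121 in limma and an exact permutation p of 0.1. In a bulk sample, a change in RNA per cell and a change in the share of cells that express a gene cannot be told apart. Raw intensities were 658, 628 and 685 in control and 921, 834 and 826 in knockdown arrays, likewise without overlap. Of all retained probes, 3.24% had a lower p than TGFB1. Without both replicate 1 arrays the change was 0.51 and passed the test (limma, adjusted p = 0.0401). In that fit 908 of 26308 retained probes passed, against 478 of 27490 with all arrays.

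Among the receptors, TGFBR2, which binds the ligand, measured 12.62, 13.00 and 13.00 in control and 12.59, 12.95 and 13.14 in knockdown arrays. The groups overlapped, and replicate 1 was the lowest array in both of them. It lay 0.39 below the mean of the other two in control and 0.45 below it in knockdown. The log2 fold change of TGFBR2 was 0.019 (SE 0.17, 95% interval -0.37 to 0.41). TGFBR1, the kinase that phosphorylates SMAD2 and SMAD3, measured 6.20, 6.17 and 6.25 in control and 6.07, 6.17 and 6.12 in knockdown arrays. This dim probe stood little above the retention thresholds of 5.66 to 6.15, although it was well above background on all 6 arrays by the scanner software's flag. Its log2 fold change was -0.086 (SE 0.091, 95% interval -0.30 to 0.12).

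ENG (endoglin), a coreceptor best known from endothelial cells, measured 10.86, 10.41 and 10.52 in control and 10.91, 10.61 and 10.54 in knockdown arrays. The groups overlapped, with replicate 1 the highest array in each. Its log2 fold change was 0.090 (SE 0.15, 95% interval -0.26 to 0.44), with all 3 pairs of equal replicate number slightly higher in knockdown. Of 5 endothelial markers, KDR, TEK and VWF were not retained, and CDH5 and PECAM1 were. The summed level of that list was 646 to 756 in control and 348 to 448 in knockdown arrays, and all 3 PECAM1 probes fell, whereas CDH5 had a log2 fold change of 0.024 (limma adjusted p = 0.958). The part of such a difference in the ENG values was not tested.

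SMAD3, a receptor-activated SMAD that binds DNA, was the other member whose groups did not overlap. It measured 8.88, 8.95 and 8.90 in control and 9.40, 8.98 and 9.28 in knockdown arrays. Knockdown replicate 2 was only just above the highest control array, whereas replicates 1 and 3 were clearly above it. The log2 fold change was 0.31 (SE 0.13, 95% interval 0.019 to 0.60), or 1.24-fold, with an adjusted p of 0.363 in limma. SMAD2, its partner in the same step, measured 7.93, 8.19 and 8.20 in control and 8.09, 7.94 and 7.85 in knockdown arrays. These groups overlapped, and the log2 fold change was -0.15 (SE 0.12, 95% interval -0.42 to 0.13). It ran from -0.23 to -0.091 with 1 array left out and was -0.30 without both replicate 1 arrays.

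SMAD4, the common partner of the activated SMADs, had the lowest change. It measured 9.26, 9.53 and 9.67 in control and 9.42, 9.11 and 8.79 in knockdown arrays. The groups overlapped because control replicate 1 was lower than knockdown replicate 1. The log2 fold change was -0.38 (SE 0.18, 95% interval -0.79 to 0.029), with an adjusted p of 0.438 in limma. Without both replicate 1 arrays, SMAD4 was lower by 0.65 on the log2 scale and passed the test (limma, adjusted p = 0.0477). The value was -0.22 without knockdown replicate 3 and -0.028 with arrays scaled to equal spike-in probes (spike-in scaling). That scaling shifted all probes alike, and the median of all retained probes became 0.35, so a value there includes the common shift. TGFB1, SMAD3 and SMAD4 were each measured on 5 spots per array, less 1 flagged spot dropped for TGFB1 and 1 for SMAD4. The SD of spots within an array ran from 0.057 to 0.19, from 0.16 to 0.30 and from 0.065 to 0.19 in that order.

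SMAD7, which blocks the receptor and is itself induced by TGF-beta, measured 9.55, 9.41 and 9.35 in control and 9.86, 9.28 and 8.98 in knockdown arrays. The knockdown arrays enclosed the control arrays, with an SD of 0.45 against 0.10. The log2 fold change was -0.064 (SE 0.21, 95% interval -0.54 to 0.42), the widest interval among the members. SKIL, a corepressor of SMAD complexes, measured 8.09, 7.90 and 7.84 in control and 8.10, 7.87 and 7.94 in knockdown arrays. Its values were almost the same in both groups, and its log2 fold change was 0.025 (SE 0.11, 95% interval -0.24 to 0.29). SKI, a related corepressor, was not retained: it measured 6.11, 5.49 and 5.78 in control and 5.69, 5.57 and 5.32 in knockdown arrays. It was well above background on 1 control array and on no knockdown array, so no change is given for it. The deposited log2 values and the fit with no filter on dim probes do hold SKI, and none of the 10 members passed in either.

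**Figure D2:**
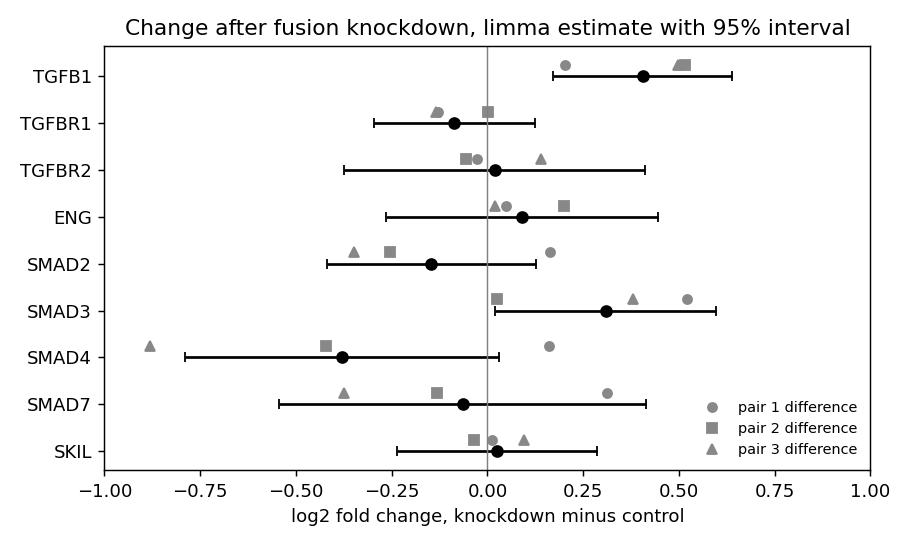
Log2 fold change (x axis, knockdown minus control) of the 9 retained members, as the limma estimate with its 95% interval (black) and as the differences within pairs of equal replicate number (grey symbols). The intervals of TGFB1 and SMAD3 lie above 0, and SMAD2, SMAD4 and SMAD7 have pair 1 above 0 with pairs 2 and 3 below it.

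Differences within pairs of equal replicate number showed how the members varied among themselves. TGFB1 was higher by 0.20, 0.52 and 0.50 in pairs 1 to 3, and SMAD3 by 0.52, 0.024 and 0.38. SMAD4 differed by 0.16, -0.42 and -0.88, SMAD2 by 0.16, -0.25 and -0.35, and SMAD7 by 0.31, -0.13 and -0.37. These 3 genes were thus higher in knockdown in pair 1 and lower in pairs 2 and 3. Members higher in all 3 pairs were TGFB1, SMAD3 and ENG, against 20.7% of all retained probes, and none was lower in all 3, against 21.3%. SMAD2, SMAD4 and SMAD7 also share a chromosome, 18. Their pattern of signs was found for 11.6% of 27425 retained probes measured on all arrays, and for 47 of 228 probes of named chromosome 18 genes (20.6%). The 47 include the probes of SMAD2, SMAD4 and SMAD7 themselves. The 27425 also hold probes outside the catalogue and probes without a gene name, so the 2 shares are not of like sets. Over those 228 probes the median differences were 0.067, -0.045 and -0.071 in pairs 1 to 3. The chromosome 18 probes were examined after the values of the SMADs had been seen, and their part in these values was not tested.

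**Figure D3:**
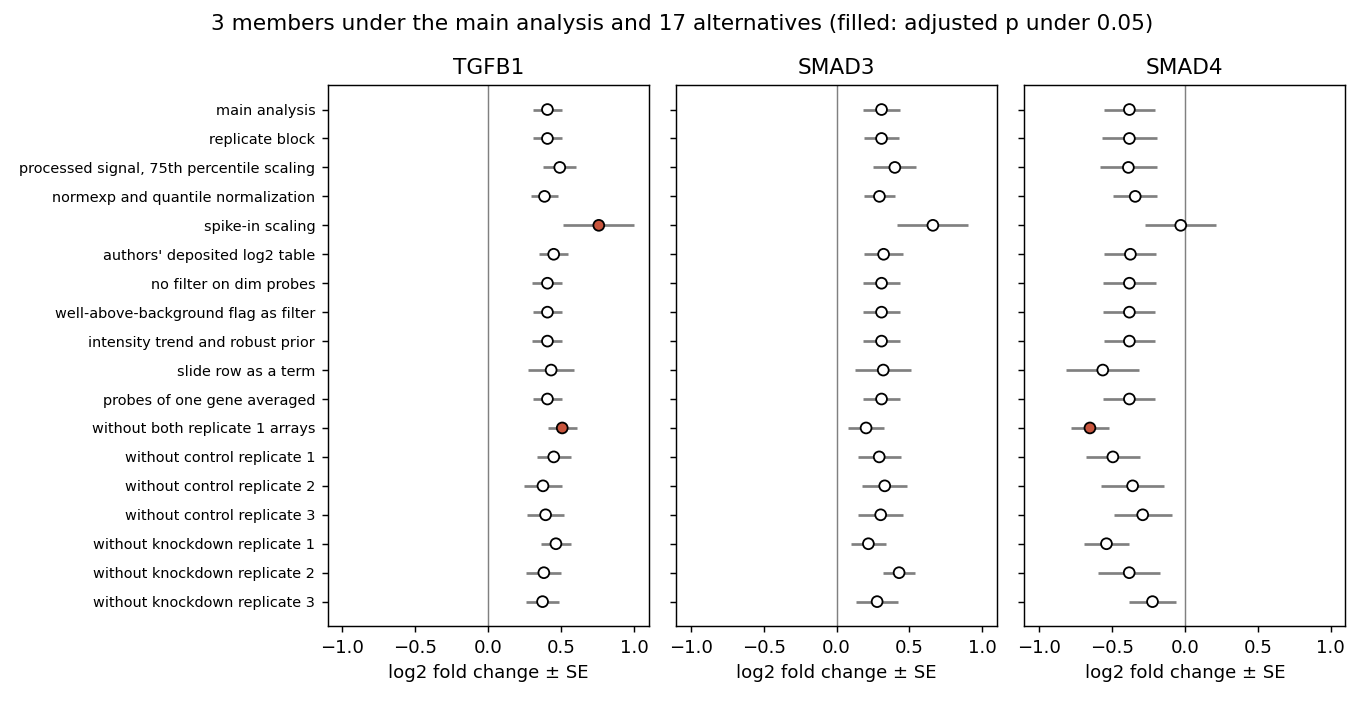
Log2 fold change ± SE (x axis) of TGFB1, SMAD3 and SMAD4 in the analysis reported here and in 17 alternative analyses (y axis); filled points passed an adjusted p under 0.05. Direction never turned for these 3 members, and TGFB1 passed in 2 alternatives, SMAD4 in 1 and SMAD3 in 0.

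With slide row as a term, where control replicate 3 alone stood for the control group, TGFB1 was higher by 0.43 and SMAD3 by 0.32. SMAD4 had a log2 fold change of -0.56. That fit cannot tell slide row from the difference between control replicate 3 and the other controls, so it is no check on row.

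The catalogue genes whose values over the 6 arrays were most like those of TGFB1 were B4GALT1 (Pearson's r = 0.996), TBX6 (r = 0.991) and PTOV1 (r = 0.989), out of 17549 probes compared. Arrays of both groups enter this measure, so shared group differences count in it. In all, 88 probes had r of at least 0.95 with TGFB1.

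Next, 85 other genes of the pathway were examined in 6 lists by role. Of their 110 probes 80 were retained, for 62 genes, and 7 of these 80 probes (8.75%) passed the test, 1 higher and 6 lower, against 1.74% of all retained probes. Their median log2 fold change was -0.080, and 47 of the 80 probes were lower, against a median of -0.0015 and 50.3% lower over all retained probes. The 7 probes belonged to 4 genes, LDLRAD4, MECOM (3 probes), ID2 (2 probes) and CCN2. With probes of a gene averaged, 3 of 62 passed, against 406 of 23537 over all. The lists were chosen with earlier results of these data known. A higher share of called probes in them is therefore no evidence about the pathway. With the replicate block 11 probes passed, against 3.79% of all retained probes in that fit, including all 7, and INHBB, ZEB1, ACVR1C and DAB2 were added, each lower in knockdown. With slide row as a term 2 of the 80 probes passed.

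**Figure D4:**
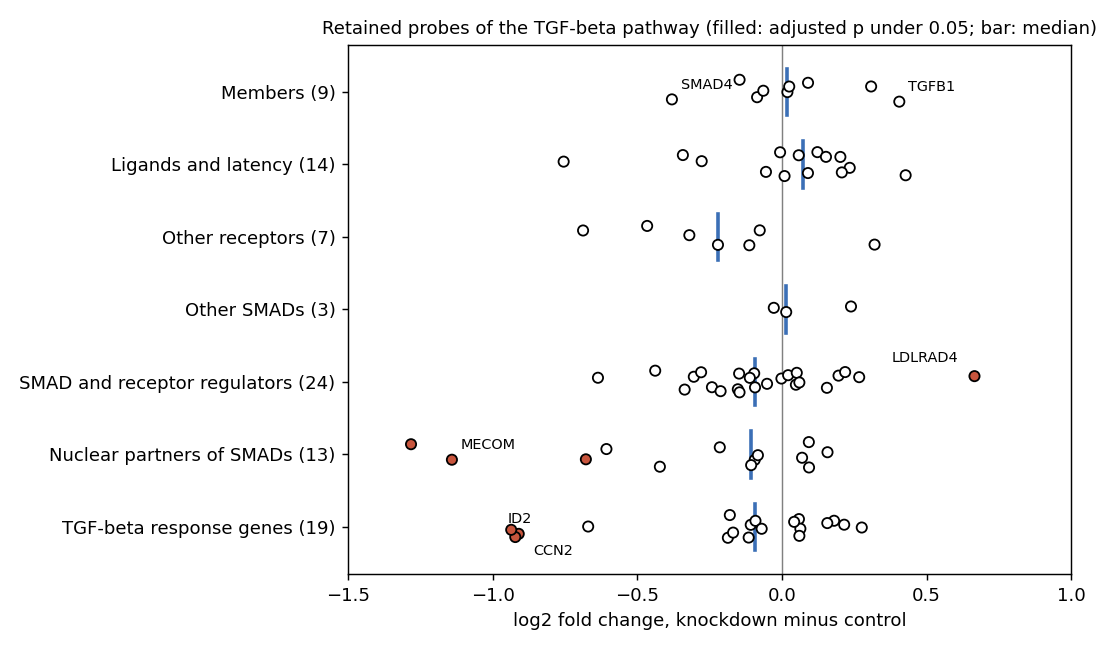
Log2 fold change (x axis, knockdown minus control) of each retained probe of the members and of 6 lists of other pathway genes (y axis, number of probes in brackets); filled points passed an adjusted p under 0.05 and blue bars are medians. The 3 MECOM probes, the 2 ID2 probes and CCN2 lie below -0.6, LDLRAD4 lies above 0.6, and no member is filled.

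Nuclear partners of SMADs held 3 of the lower probes, all for MECOM, a zinc finger transcription factor that can bind SMAD3. Its brightest probe measured 9.52, 9.49 and 9.41 in control and 8.29, 8.20 and 8.09 in knockdown arrays. The groups lay far apart, and MECOM fell by 1.28 on the log2 scale (SE 0.10, limma adjusted p = 0.00101). The other MECOM probes fell by 1.14 and by 0.68 (limma adjusted p = 0.00213 and 0.0167). The latter lost its call without control replicate 1 or 2, without knockdown replicate 2 or 3, with no filter on dim probes, with slide row as a term and with spike-in scaling. The value of that probe ran from -0.74 to -0.63 with 1 array left out. It was -0.33 with spike-in scaling and -1.14 with processed signals scaled to their 75th percentile (75th percentile scaling). The other 10 retained probes of this list did not pass. SP1, a general activator, had the highest value, 0.16 (SE 0.11), and was 0.068 without knockdown replicate 1.

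Of 19 retained probes of TGF-beta response genes, 8 were higher and 11 lower in knockdown. The test was passed by 3 lower and 0 higher probes, against 1.28% lower and 0.458% higher over all retained probes. ID2, an inhibitor of helix-loop-helix factors, measured 10.21, 9.93 and 9.90 in control and 9.00, 9.09 and 9.19 in knockdown arrays on its brighter probe. It fell by 0.92 (SE 0.12, limma adjusted p = 0.00885), and by 0.94 on the other probe (limma adjusted p = 0.0116). The call of the other probe was lost without control replicate 2 and without knockdown replicate 2 or 3. The value of that probe ran from -1.02 to -0.82 with 1 array left out. Both probes lost their call with slide row as a term (-0.80 and -0.76, limma adjusted p = 0.137 and 0.165) and with spike-in scaling (-0.57 and -0.58, limma adjusted p = 0.146 and 0.139). CCN2, a matricellular protein, measured 7.91, 8.58 and 8.46 in control and 7.31, 7.41 and 7.50 in knockdown arrays. It fell by 0.91 (SE 0.18, limma adjusted p = 0.0493) and lost its call in 13 of 17 alternatives, including the deposited log2 values (-0.95, limma adjusted p = 0.0530), 75th percentile scaling (-1.02, limma adjusted p = 0.113) and slide row as a term (-1.06, limma adjusted p = 0.196). Over all 17, CCN2 was lower in knockdown, from -1.12 to -0.56. Left-out arrays that ended the call were control replicates 2 and 3 and each knockdown replicate. COL1A1, a collagen, had the highest value of this list, 0.28 (SE 0.23), which ran from 0.084 without knockdown replicate 1 to 0.50 without control replicate 1.

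Among 24 retained probes of SMAD and receptor regulators, only LDLRAD4 passed the test. LDLRAD4, a membrane protein that keeps SMAD2 and SMAD3 from the receptor, measured 9.78, 9.89 and 9.77 in control and 10.58, 10.33 and 10.53 in knockdown arrays. It rose by 0.67 (SE 0.11, limma adjusted p = 0.0219), a call lost without any one of the 3 control replicates and without knockdown replicate 3. The call was also lost with 75th percentile scaling, with no filter on dim probes and with slide row as a term (limma adjusted p = 0.0588, 0.0699 and 0.165), at log2 fold changes of 0.71, 0.67 and 0.71. DAB2, an adaptor that links receptors to SMADs, had the lowest value of that list, -0.64 (SE 0.18, limma adjusted p = 0.187, or 0.0244 with the replicate block). DAB2 also passed without knockdown replicate 1 (-0.83, limma adjusted p = 0.0362) and without both replicate 1 arrays (-0.71, limma adjusted p = 0.0160). Its value was -0.28 with spike-in scaling (limma adjusted p = 0.363) and -0.59 with slide row as a term.

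None of the 14 retained probes of ligands and latency genes passed the test. NRROS, which anchors latent TGFB1 on the cell surface, had the highest value, 0.43 (SE 0.10, limma adjusted p = 0.0876), and its groups did not overlap. With spike-in scaling, where the median of all retained probes was 0.35, NRROS was 0.78 and passed (limma adjusted p = 0.0399). INHBB, an activin and inhibin subunit, had the lowest, -0.75 (SE 0.25, limma adjusted p = 0.242, or 0.0418 with the block). INHBB also passed without control replicate 1 (-1.03, limma adjusted p = 0.0479) and without both replicate 1 arrays (-0.90, limma adjusted p = 0.0170). Its value was -0.40 with spike-in scaling (limma adjusted p = 0.244) and -0.85 with slide row as a term. None of 7 retained probes of other receptors passed, with TGFBR3 (betaglycan, a coreceptor for TGF-beta) at 0.32 (SE 0.12) and ACVR1C, a type I receptor, at -0.69 (SE 0.20, limma adjusted p = 0.191, or 0.0199 with the block). ACVR1C ran from -1.30 with 75th percentile scaling to -0.34 with spike-in scaling. Of the other SMADs, 3 of 4 genes were retained and none passed, from -0.028 for SMAD1 (SE 0.12) to 0.24 for SMAD6 (SE 0.14), which ran from 0.14 without knockdown replicate 2 to 0.40 without knockdown replicate 1. Without adjustment, p was under 0.05 for 3 of 14, 2 of 7 and 0 of 3 probes of these 3 lists, and for 6 of 24 regulators, 5 of 13 nuclear partners and 3 of 19 response genes, against 12.5% of all retained probes.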

How the data were processed

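The members and gene lists were chosen with earlier results of these data known. RNA of 3 control and 3 knockdown samples, which the study describes as biological triplicates, was hybridised to 6 one-color arrays on 1 slide. The deposited scanner files, made by the authors with Feature Extraction 10.7.1.1, give an intensity per spot that was not normalized between arrays. The authors also deposited normalized log2 values, made by variance stabilization (VSN) with a filter against negative controls, for 27869 probes, and these were used as an alternative. Their column medians ran from 8.29 to 8.37, and they correlated with the values computed here at r = 0.99906 to 0.99967 on single arrays.

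The VSN model (affine calibration per array, then an inverse hyperbolic sine, with the 0.9 quantile of least squares kept) was written anew and run on the raw median intensity. Spots flagged as outliers were dropped, none was saturated, and repeated spots were averaged. The retention threshold was 1.1 times the 0.95 quantile of 308 normalized negative control spots, to be passed by at least 60% of a group's arrays. The comparison used limma 3.58.1 (R 4.3.3, no block, two-sided) with Benjamini-Hochberg adjustment over 27490 probes, and 65 of these lacked a value on some array and were fitted on the others. The procedure was tested on simulated data. The 5 cell type marker lists were summed as linear values of retained probes. Of the other lists, T cell markers summed to 195 to 230 in control and 205 to 359 in knockdown arrays, myeloid markers to 504 to 575 and 430 to 470 (CD68, 1 of 3 retained probes, fell), and stromal or epithelial markers to 45241 to 62137 and 51713 to 60367.

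Accessions were matched without versions to a RefSeq gene table, which named 25728 of 34134 catalogue probes (75.4%). Named are all members, ETV6 and RUNX1, the 3 genes most like the member of largest change and, per list, the genes called and those with the highest and the lowest change, by their brightest probe (KDR, TEK, VWF, CDH5, PECAM1, CD68, VPREB1 and ZEB1 are named beyond this rule). Deviations from the group means correlated at 0.43, 0.29 and 0.20 between samples of equal replicate number, and between -0.33 and 0.19 at unequal numbers, with control 2 and knockdown 3 at 0.19 and control 3 and knockdown 2 at 0.17. As all equal numbers were over 0.1, they were taken to pair the samples, although only replicate 1 stood clearly apart. This pairing comes from the data, not from the labels. Alternatives covered the block, normalization, filter, variance prior, slide row, probes per gene and left-out arrays. The number of arrays limits the precision.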

Additional observations from a re-analysis of the deposited data

How the results depend on the processing

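Over 17 alternatives, the 9 retained members gave 153 values, of which 135 kept direction and side of the threshold, 15 turned in sign and 3 newly passed. The cause of the differences was not tested. Counts over all retained probes were 1041 with the replicate block, 1069 with spike-in scaling (6 probes), 224 with no filter on dim probes, 227 with slide row as a term, 908 without both replicate 1 arrays, and 186 to 580 with 1 array left out, with 186 without control replicate 2, 277 without control replicate 1, 258 without control replicate 3, 221 without knockdown replicate 2 and 215 without knockdown replicate 3. Member counts were 1 of 9 with spike-in scaling (1069 of 27490 over all) and 2 of 9 without both replicate 1 arrays (908 of 26308 over all). They were 0 with any 1 array left out. For the other pathway genes, 11 of 80 probes passed with the block (1041 of 27490 over all) and 4 of 80 with spike-in scaling. With no filter 4 of 110 passed (224 of 57176 over all). With probes of a gene averaged 3 of 62 passed (406 of 23537 over all). Counts were 3 to 8 with 1 array left out (3 without control replicate 2 or knockdown replicate 3, 4 without knockdown replicate 2). The block changed no call of a member or of ETV6. Signal over background limits what can be said of SKI and TGFBR1.

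Spike-in scaling moved the median of all retained probes to 0.35, and 909 called probes were then higher and 160 lower. The members' median became 0.37. All named probes had the same SE there, 0.24, since the fit pooled the error over probes. TGFB1 passed there at 0.76, a call that includes the common shift (limma adjusted p = 0.0481, with a range of 0.0401 to 0.546 over its alternatives), and signs turned as TGFBR1 became 0.27, SMAD2 0.21, SMAD7 0.29, SMAD1 0.32 and 4 RUNX1 probes 0.089, 0.17, 0.14 and 0.21. SMAD4 passed without both replicate 1 arrays, with a range of adjusted p from 0.0477 to 0.922 over its alternatives. ETV6 passed at -0.70 with an intensity trend and robust prior (limma adjusted p = 0.0437) and at -0.84 without both replicate 1 arrays (limma adjusted p = 0.0212), within 0.0212 to 0.291 over its alternatives, and ran from -0.80 to -0.57 with 1 array left out. It was -0.35 with spike-in scaling (limma adjusted p = 0.291) and -0.96 with slide row as a term.

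Other signs also turned. With 75th percentile scaling, TGFBR1 was 0.011, SMAD7 0.0041 and SMAD1 0.022. With slide row as a term, TGFBR2 was -0.11, SMAD7 0.021 and SMAD1 0.050. With probes averaged, RUNX1 probe A_33_P3211818 was -0.15, and without both replicate 1 arrays SMAD1 was 0.034. With 1 array left out, TGFBR2 ran from -0.11 to 0.17, ENG from -0.023 to 0.22, SKIL from -0.042 to 0.098, SMAD7 from -0.31 to 0.13, SMAD1 from -0.11 to 0.065 and RUNX1 probe A_33_P3211818 from -0.033 to 0.12.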
